A study of Mus musculus with 2 samples.

Results

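The genes described here encode T cell checkpoint and costimulatory receptors and their partners: Pdcd1, Lag3, Ctla4, Tigit, Havcr2, Tox, Cd160, Cd226 and Cd40lg. They are 9 of the 32285 genes in the matrices, taken by symbol and followed through T, natural killer T (NKT)-like and natural killer (NK)-like cells of the liver. The data are 10x Genomics single-cell RNA counts of liver non-parenchymal cells, the immune, endothelial and other cells obtained by collagenase digestion. Both groups were male mice, 5 months old, on standard chow: Hep-ADKTg mice overexpress adenosine kinase (Adk) in hepatocytes under the promoter of albumin, and the controls are Hep-ADKWT mice. Each group is 1 library, and it is not given whether that was 1 mouse or a pool of mice. Genotype, animal, cell preparation and library therefore cannot be told apart. No test between groups was possible, and every 95% interval given covers counting error only.

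PD-1 (Pdcd1), LAG3, CTLA4, TIGIT and TIM-3 (Havcr2) are inhibitory receptors that T cells display after activation and keep when antigen persists, and TOX is a nuclear factor of exhausted T cells. CD226 activates T and NK cells through PVR and nectin-2, the ligands that TIGIT uses to inhibit them. CD160 binds the herpesvirus entry mediator (Tnfrsf14), and CD40 ligand (Cd40lg) is the signal by which helper T cells activate B cells and dendritic cells. The liver is rich in NKT cells and in type 1 innate lymphoid cells (ILC1), a tissue-resident relative of conventional NK cells.

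On mouse build GRCm38 with GENCODE M21 annotation, Pdcd1 lies at chr1:94038305-94052553 and Ctla4 at chr1:60887000-60915832, Cd160 at chr3:96798763-96829351, Tox at chr4:6686353-6991557, Lag3 at chr6:124904361-124911705, Havcr2 at chr11:46454935-46481255, Tigit at chr16:43648867-43664146 and Cd40lg at chrX:57212143-57224042. Ctla4, Havcr2 and Cd40lg are on the plus strand and the other 5 of these on the minus strand. Cd160 and Tox overlap Pdzk1 and Gm11802 on the opposite strand. Ctla4 overlaps the pseudogene Rpl18-ps1 on its own strand, which the matrices do not count. Promoter sequence from RefSeq (GRCm38.p6) was taken for 5 of the 9 genes. Neither a position nor a promoter is given for Cd226. The 250 bases before the start are shown for Pdcd1 (chr1:94052554-94052803, minus strand), for both starts of Cd160 (chr3:96814522-96814771 and chr3:96829352-96829601, minus strand) and for Ctla4 (chr1:60908775-60909024, plus strand, before a start inside the gene's annotated span). These were chosen because, of the 7 subsets compared, Pdcd1 and Ctla4 were highest in CD4 T-like cells and Cd160 in ILC1-like cells, as given further on. Each reads 5′ to 3′ on the gene's strand, and capitals mark matches on either strand to the NFAT core GGAAA, to AP-1 (TGANTCA) or to RUNX (TGTGGT).
Pdcd1: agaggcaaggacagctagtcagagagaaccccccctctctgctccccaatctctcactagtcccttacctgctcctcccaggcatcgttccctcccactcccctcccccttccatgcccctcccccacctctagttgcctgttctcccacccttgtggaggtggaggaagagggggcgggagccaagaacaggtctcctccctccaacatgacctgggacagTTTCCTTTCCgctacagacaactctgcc
Cd160, start inside the gene's span: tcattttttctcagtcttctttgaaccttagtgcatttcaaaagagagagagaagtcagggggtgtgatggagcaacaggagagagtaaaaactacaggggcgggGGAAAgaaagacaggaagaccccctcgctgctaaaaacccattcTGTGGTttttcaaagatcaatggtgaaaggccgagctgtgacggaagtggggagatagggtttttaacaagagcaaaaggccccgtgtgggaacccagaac
Cd160, outer start: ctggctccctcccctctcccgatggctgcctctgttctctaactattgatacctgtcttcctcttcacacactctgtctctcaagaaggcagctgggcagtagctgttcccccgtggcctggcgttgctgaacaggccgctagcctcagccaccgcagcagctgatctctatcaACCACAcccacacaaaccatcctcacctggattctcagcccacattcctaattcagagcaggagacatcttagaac
Ctla4: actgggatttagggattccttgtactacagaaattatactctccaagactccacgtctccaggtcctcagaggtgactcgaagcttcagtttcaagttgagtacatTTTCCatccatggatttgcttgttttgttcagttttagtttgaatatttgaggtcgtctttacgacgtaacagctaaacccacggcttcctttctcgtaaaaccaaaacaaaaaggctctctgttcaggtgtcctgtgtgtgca
The Pdcd1 window held 2 NFAT core matches, the inner Cd160 window 1 NFAT core and 1 RUNX match, the outer Cd160 window 1 RUNX match and the Ctla4 window 1 NFAT core match. Of 32851 RefSeq promoter windows of that length, 55.6% held the NFAT core, 14.0% the RUNX letters and 6.75% the AP-1 letters. A match is a description of these letters and not a measured binding site.

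Unique molecular identifiers (UMIs, counted RNA molecules) numbered 97135016 over 15663 barcodes in the Hep-ADKWT library (WT) and 96481752 over 17462 in the Hep-ADKTg library (Tg). Wherever a pair of values stands, WT comes first. After filters 12482 and 14449 cells remained, of which 4532 (36.3%) and 2580 (17.9%) were T or NK lymphocytes by raw UMIs of their marker genes. The lymphocytes had medians of 5689 and 4381 UMIs, and the WT cells were deeper in each of the 7 subsets with at least 50 cells per library. Those were 743 and 419 CD8 T-like, 438 and 279 CD4 T-like, 1966 and 840 NKT-like, 185 and 90 gamma-delta T-like, 855 and 791 other T-like, 166 and 82 conventional NK-like and 156 and 65 ILC1-like cells. Other T-like cells are those that met none of the other T cell gates, and Treg-like cells (22 and 13) were too few to compare. Cd3 transcripts summed to at least 1850 UMIs per 1e6 UMIs of the subset (CPM) in each T subset and to at most 25.4 CPM in the NK-like and ILC1-like cells, as the gates require. T and NK cells with 3 or more UMIs of another lineage had been left out, and the markers of other lineages then stood at no more than 20.97 (B cell list), 24.1 (plasmacytoid dendritic cell, pDC), 11.1 (myeloid), 3.54 (neutrophil) and 21.2 CPM (endothelial) in any of the 7 subsets. The few Treg-like cells read up to 38.2 CPM for the B cell and pDC lists. Hepatocyte transcripts took 0.348% to 2.73% of UMIs in the WT subsets and 2.59% to 9.07% in the Tg subsets, and with those genes left out of the totals each of 53 ratios stayed within its interval; other effects of free RNA were not tested. Adk stood at 478 and 460 CPM in the 5 and 66 cells gated as hepatocyte-like and at 602 and 576 CPM in cells that passed no gate. In the pooled lymphocytes it read 27.4 and 104 CPM, on 831 and 1425 UMIs. Over the 7 subsets it ran from 18.6 to 71.5 CPM in WT and from 58.8 to 228 CPM in Tg. The source of these Adk transcripts was not tested. Since a 3′ count may miss the transgene, Adk checks neither label. Of the kept barcode sequences 58 occurred in both libraries, and 5 of them belonged to lymphocytes in both.

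Across all T and NK lymphocytes, Lag3 and Pdcd1 stood lower in the Tg library, Tox and Cd226 were lower by less, and the intervals of Cd160, Cd40lg and Ctla4 held a ratio of 1. A count past a fold takes genes with at least 50 UMIs over both libraries. Of the 9 genes 7 had them, while Tigit (28 and 9 UMIs) and Havcr2 (31 and 15 UMIs) did not. None of the 7 was at least 2-fold lower in Tg, against 1.5% of the 11967 genes counted by that rule, and none was at least 2-fold higher, against 8.69%. The median log2 ratio of Tg over WT was -0.29 over the 7 genes and -0.13 over all 11967. By subset, 1 gene in NKT-like and 2 in ILC1-like cells were past 2-fold and are described with their values. None was in CD8 T-like (6 genes, against 1.73% of all genes lower and 5.53% higher), CD4 T-like (6 genes, against 1.43% and 3.83%), gamma-delta T-like (4 genes, against 2.44% and 4.24%), other T-like (7 genes, against 2.26% and 7.71%) and conventional NK-like cells (3 genes, against 2.67% and 3.45%). Because the pooled median lay below 0, DESeq2 size factors raised every pooled ratio by 0.13, and ratios on that scale are given where they bear on a direction.

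Pdcd1, the gene of PD-1, was sparse in every subset. In the pooled lymphocytes it stood at 8.91 (7.88–10.0) and 5.90 (4.69–7.34) CPM, a log2 ratio of -0.59 (-0.97 to -0.23). CD4 T-like cells had the highest level of the 7 subsets in both libraries, at 13.3 (9.16–18.7) and 14.4 (8.66–22.5) CPM, with intervals that overlapped those of the next subset. Conventional NK-like cells held 1 and 0 Pdcd1 UMIs and ILC1-like cells 1 and 2, and no B cell-like, pDC-like or neutrophil-like cell of either library held one.

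The lower Pdcd1 of the Tg library was seen in NKT-like and other T-like cells. NKT-like cells held 97 and 14 UMIs, or 7.36 (5.97–8.98) and 2.89 (1.58–4.86) CPM, and the log2 ratio was -1.35 (-2.27 to -0.53), or -1.22 on the DESeq2 scale. Pdcd1 was the 1 gene of 7 at least 2-fold lower there, where 1.7% of 10370 genes were, and none was 2-fold higher, against 6.94%. Other T-like cells stood at 13.1 (10.3–16.4) and 6.66 (4.31–9.83) CPM, a ratio of -0.97 (-1.69 to -0.30). Their 73 and 25 UMIs came from 37 and 21 cells. CD8 T-like cells (6.52 and 5.86 CPM) and CD4 T-like cells had intervals that held 0, at -0.16 (-1.12 to 0.74) and 0.11 (-0.78 to 0.97). With NKT-like and other T-like cells joined, a step chosen after seeing the data because as little as 1 UMI of Klrb1c or Zbtb16 divides them, the ratio was -0.997.

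These Pdcd1 ratios moved when cells were thinned. Every cell was thinned to 1500 UMIs, shallower cells were left out, and only then were cells gated, called matched depth here. The pooled lymphocytes then held 41 and 26 Pdcd1 UMIs. Their ratio was 0.26 (-0.51 to 0.999), on the other side of 0. Other T-like cells likewise turned to 0.71 (-0.44 to 1.88), and NKT-like cells stood at -0.64 (-3.91 to 1.69) on 8 and 2 UMIs. The gates then held other cells: 950 and 369 NKT-like, against 1966 and 840 before, and 1812 and 1183 other T-like, against 855 and 791. The pool changed too, to 4046 and 2150 lymphocytes, against 4532 and 2580. Ratios of any gene at matched depth, by subset or pooled, therefore describe other sets of cells. Weighting each cell of the first gates equally gave -0.37 in the pool, -1.29 in NKT-like and -0.60 in other T-like cells. What moved the ratios was not tested. With cells gated first and then thinned, 1.03% and 1.02% of lymphocytes held a Pdcd1 UMI, against 4.08% and 2.71% before thinning. At matched depth the data therefore do not give Pdcd1 a direction between the libraries.

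Lag3, an inhibitory receptor for MHC class II, had the lowest pooled ratio of the 7 genes, -0.79 (-1.15 to -0.44), from 10.6 (9.43–11.8) and 6.12 (4.88–7.58) CPM. It was -0.65 on the DESeq2 scale and -0.64 (-1.28 to -0.039) at matched depth, on 91 and 31 UMIs. NKT-like cells (9.41 and 5.38 CPM, -0.81, interval -1.48 to -0.19) and other T-like cells (8.96 and 5.06 CPM, -0.82, interval -1.67 to -0.036) were lower in Tg. CD8 T-like cells stood at 10.5 and 7.42 CPM with an interval that held 0, -0.50 (-1.32 to 0.27), and CD4 T-like cells held 19 and 2 UMIs, too few for the 50-UMI rule. ILC1-like cells were the subset with the highest Lag3, at 61.7 (45.8–81.3) and 45.1 (25.8–73.2) CPM, and their intervals overlapped those of no other of the 7 subsets in the same library. Conventional NK-like cells, their relatives, held 3 and 1 Lag3 UMIs. At matched depth NKT-like cells stood at -2.72 (-8.11 to -0.049) on 17 and 1 UMIs, while other T-like cells, at -0.31 (-1.58 to 0.87), had 0 inside their interval. The ILC1-like ratio was -0.45 (-1.36 to 0.38) and turned to 0.12 (-1.17 to 1.28).

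Lag3 was also abundant outside T and NK cells. The pDC-like cells carried 149 (136–163) and 191 (167–217) CPM, above each of the 7 lymphoid subsets, and 16.6% and 25.2% of them held a Lag3 UMI after thinning. Cells that passed no gate, which carried 14.3 and 21.9 percent hepatocyte transcripts, stood at 9.87 (7.64–12.6) and 6.34 (5.55–7.20) CPM, close to the lymphocyte pool. After thinning 1.43% and 1.20% of the ungated cells deep enough held a Lag3 UMI, against 1.87% and 1.10% of lymphocytes and 0.140% and 0.308% of B cell-like cells. Thinning left out most ungated cells, whose medians were 1241 and 1073 UMIs, but kept 4486 of 4532 and 2557 of 2580 lymphocytes. In the Tg library the lymphocyte share was no higher than the share of these deeper ungated cells. The part of free RNA in the low Lag3 of T cells was not tested.

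**Figure D1:**
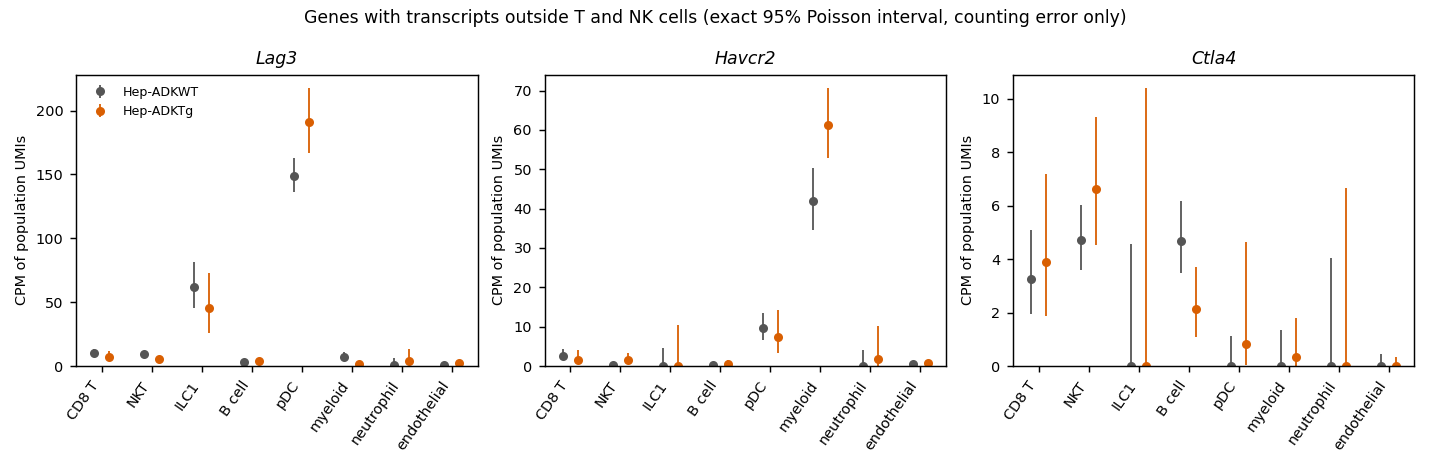
Level of Lag3, Havcr2 and Ctla4 in 3 lymphoid subsets and 5 other gated populations (CPM of the population's summed UMIs, vertical axes from 0), grey points for Hep-ADKWT and orange for Hep-ADKTg, with exact 95% Poisson intervals for counting error as bars. Lag3 is highest in pDC (149 and 191 CPM) and Havcr2 in myeloid cells (42.0 and 61.2 CPM), and Ctla4 in B cells (4.67 and 2.13 CPM) has intervals that overlap those of CD8 T cells.

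Ctla4, the inhibitory receptor that competes with CD28 for CD80 and CD86, was highest of the 7 subsets in CD4 T-like cells, at 16.9 (12.2–22.9) and 18.2 (11.6–27.0) CPM. Conventional NK-like and ILC1-like cells held no Ctla4 UMI in either library. The few Treg-like cells, a type that keeps CTLA4 constitutively, stood far above, at 189 (133–261) and 325 (189–519.6) CPM on 37 and 17 UMIs. Between the libraries the pooled ratio was 0.22 (-0.13 to 0.55), and -0.15 (-0.98 to 0.63) at matched depth. NKT-like cells stood at 4.71 and 6.62 CPM, a ratio of 0.49 (-0.17 to 1.13). B cell-like cells carried 4.67 and 2.13 CPM, and CD8 T-like cells 3.26 (1.96–5.09) and 3.90 (1.87–7.18) CPM, so WT was lower and Tg higher in CD8 T-like than in B cell-like cells. The B cell-like intervals, 3.47–6.16 and 1.10–3.72, overlapped those of CD8 T-like cells in both libraries.

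Tigit and Havcr2 were close to the limit of detection in T and NK cells. Tigit stood at 0.924 and 0.656 CPM in the pool, with a UMI in 28 and 9 cells. Havcr2 stood at 1.02 and 1.09 CPM, with 15 and 4 UMIs in CD8 T-like cells, and the 4 and 8 UMIs of NKT-like cells came from 4 and 2 cells. Myeloid-like cells, which also use TIM-3, carried 42.0 (34.6–50.4) and 61.2 (52.8–70.5) CPM, and 6.48% and 9.34% of them held a Havcr2 UMI after thinning.

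Tox gave different ratios in different lymphocytes. In the pool it stood at 52.9 (50.3–55.5) and 38.5 (35.3–41.9) CPM, a log2 ratio of -0.46 (-0.60 to -0.32) and -0.33 on the DESeq2 scale. NKT-like cells (46.5 and 28.5 CPM, -0.71, interval -0.98 to -0.44) and other T-like cells (62.0 and 35.2 CPM, -0.82, interval -1.12 to -0.52) were lower in Tg. CD8 T-like cells were higher, at 46.3 (41.0–52.2) and 57.4 (48.5–67.5) CPM, or 0.31 (0.0090 to 0.60). The difference between these subsets' ratios could not be tested with 1 library a group. At matched depth the ratio was -0.19 (-0.49 to 0.096) in the pool, -0.18 (-0.95 to 0.54) in NKT-like, -0.28 (-0.74 to 0.18) in other T-like and 0.16 (-0.53 to 0.81) in CD8 T-like cells, and each of these intervals held 0.

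Of the 7 subsets ILC1-like cells had the highest Tox in WT, apart from the others. In Tg their interval overlapped those of CD8 T-like, conventional NK-like, CD4 T-like and gamma-delta T-like cells. Tox levels in ILC1-like cells were 136 (112–164) and 67.6 (43.3–101) CPM, a ratio of -1.005 (-1.71 to -0.36). Tox and Cd226 were 2 of 4 genes at least 2-fold lower in ILC1-like cells, where 5.53% of 3506 genes were, and none was 2-fold higher, against 8.7%. Cd226 stood at 382 (341–427) and 169 (129–218) CPM, or -1.18 (-1.60 to -0.77), and Cd160 at 682 (627–741) and 397 (334–469) CPM, or -0.78 (-1.06 to -0.51). DESeq2 size factors raised ILC1-like ratios by 0.21, which put Tox at -0.79 and Cd226 at -0.97, both under 2-fold. At matched depth the ratios were 0.091 (-1.05 to 1.13) for Tox, -0.25 (-0.92 to 0.37) for Cd226 and -0.38 (-0.87 to 0.090) for Cd160, each with 0 inside its interval. Of the 7 subsets ILC1-like cells held the most hepatocyte transcripts, at 2.73 and 9.07 percent of UMIs.

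**Figure D2:**
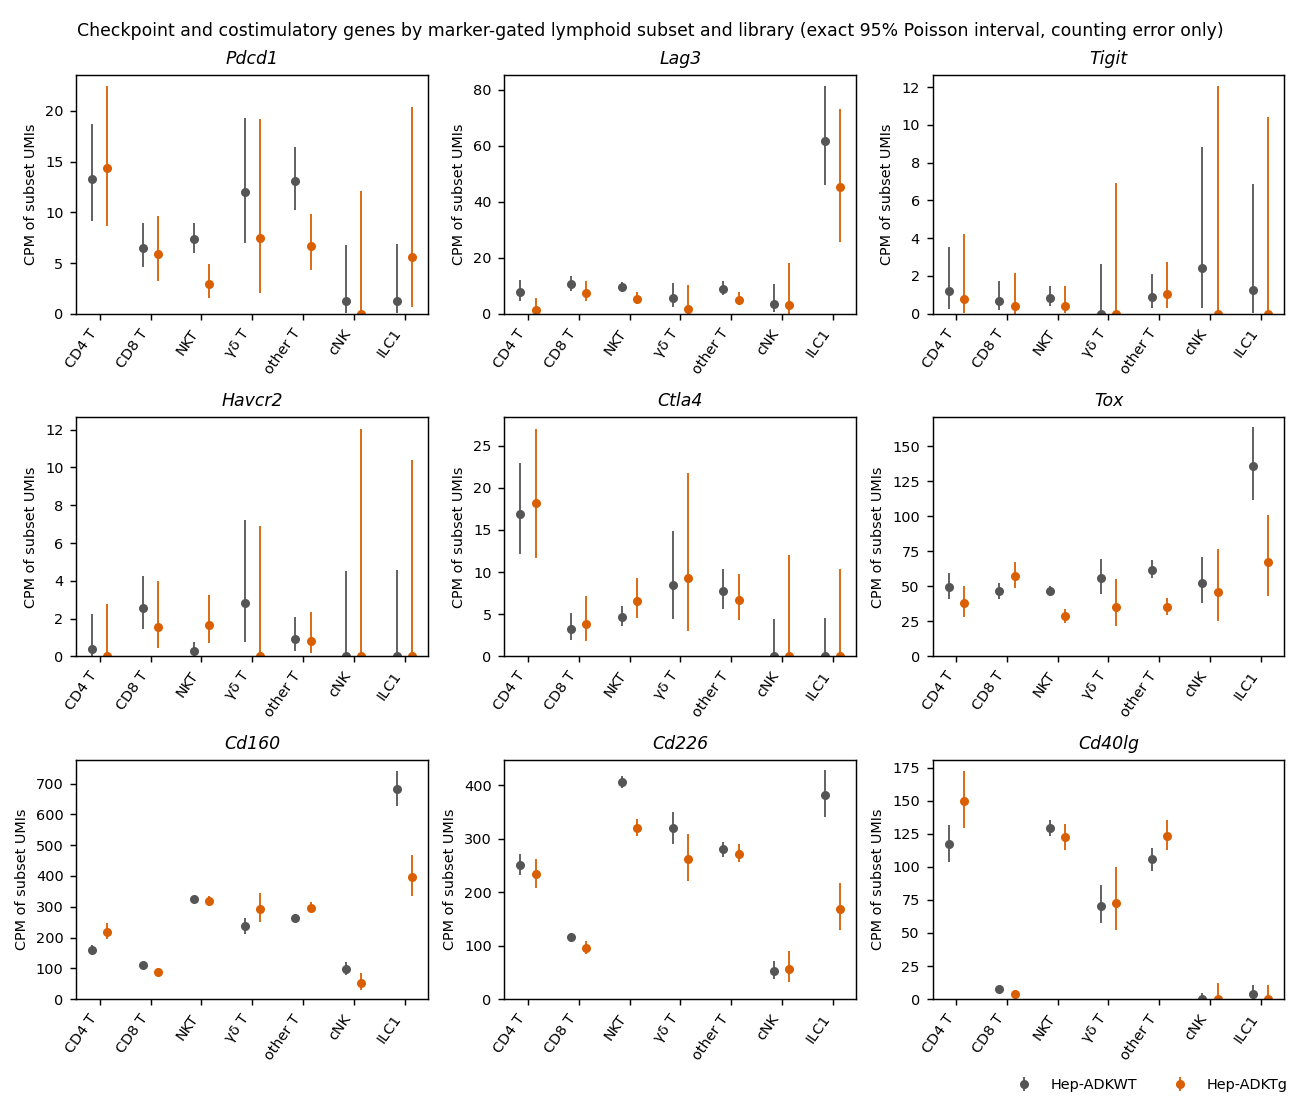
Level of each of the 9 genes in 7 lymphoid subsets (CPM of the subset's summed UMIs, vertical axes from 0), grey points for Hep-ADKWT and orange for Hep-ADKTg, with exact 95% Poisson intervals for counting error as bars. ILC1 stand highest for Lag3, Tox and Cd160, Cd40lg is near 0 in CD8 T cells, conventional NK cells (cNK) and ILC1, and the points of Tigit and Havcr2 stay under 3 CPM.

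Cd160, a receptor of cytotoxic and innate lymphocytes, was highest in ILC1-like cells, followed by NKT-like (325 and 317 CPM), other T-like (262 and 296 CPM) and gamma-delta T-like cells (236 and 294 CPM). CD4 T-like cells stood at 158 and 219 CPM, CD8 T-like cells at 111 and 89.0 CPM and conventional NK-like cells at 97.5 and 52.3 CPM. B cell-like cells read 1.59 and 0.711 CPM. The pooled levels, 257 and 254 CPM, differed by less than counting error (-0.018, interval -0.077 to 0.039), and the sign turned to 0.11 on the DESeq2 scale. NKT-like cells did likewise, at -0.037 (-0.12 to 0.048) and 0.088 on that scale. At matched depth the pool stood at 0.062 (-0.054 to 0.18) and NKT-like cells at 0.31 (0.059 to 0.55), higher in Tg.

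While the pooled Cd160 levels were close, the subsets' ratios lay on both sides of 0. CD4 T-like (0.47, interval 0.25 to 0.69), gamma-delta T-like (0.31, interval 0.030 to 0.59) and other T-like cells (0.18, interval 0.062 to 0.29) were higher in Tg. CD8 T-like (-0.32, interval -0.54 to -0.096) and conventional NK-like cells (-0.90, interval -1.77 to -0.11) were lower. At matched depth CD8 T-like cells stood at -0.94 (-1.47 to -0.45) and other T-like cells at 0.17 (0.014 to 0.33). Gamma-delta T-like cells, at 0.69 (-0.12 to 1.48), CD4 T-like cells, at 0.0074 (-0.51 to 0.51), and conventional NK-like cells, at 0.15 (-1.06 to 1.28), had intervals that held 0.

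Cd226, the activating counterpart of Tigit, was highest in NKT-like cells, at 406 (395–417) and 319.9 (304–336) CPM, with ILC1-like cells overlapping them in WT. CD8 T-like cells (115 and 96.0 CPM) and conventional NK-like cells (52.4 and 55.6 CPM) were lowest. The pooled levels were 298 (292–304) and 244 (235–252) CPM, a ratio of -0.29 (-0.35 to -0.23), -0.16 on the DESeq2 scale and -0.14 (-0.26 to -0.031) at matched depth. NKT-like cells stood at -0.34 (-0.42 to -0.26), and at -0.12 (-0.36 to 0.12) at matched depth. CD8 T-like cells moved from -0.26 (-0.48 to -0.051) to -0.85 (-1.38 to -0.35) at matched depth, and conventional NK-like cells from 0.084 (-0.82 to 0.92) to 2.33 (0.54 to 4.46), on 4 and 10 UMIs. After thinning, 42.0% and 38.6% of NKT-like cells held a Cd226 UMI, against 0.233% and 0.231% of B cell-like cells. Other T-like cells stood near 0, at -0.040, and at 0.098 on the DESeq2 scale.

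Cd40lg, the only ligand among the 9 genes, stood at 117 (104–131) and 149.8 (129.7–172) CPM in CD4 T-like cells. It was also present in NKT-like (129 and 122 CPM), other T-like (106 and 124 CPM) and gamma-delta T-like cells (70.7 and 72.9 CPM). CD8 T-like cells held 7.55 and 3.90 CPM, ILC1-like cells 3 and 0 UMIs and conventional NK-like cells none. The pooled ratio was 0.069 (-0.027 to 0.16), 0.20 on the DESeq2 scale and 0.22 (0.028 to 0.41) at matched depth, so 0 lay inside the first interval and below the last. CD4 T-like cells stood higher in Tg, at 0.36 (0.089 to 0.62), as did other T-like cells, at 0.23 (0.050 to 0.41). At matched depth these were 0.36 (-0.28 to 0.99) and 0.19 (-0.061 to 0.43). NKT-like cells stood at -0.081, and at 0.043 on the DESeq2 scale.

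**Figure D3:**
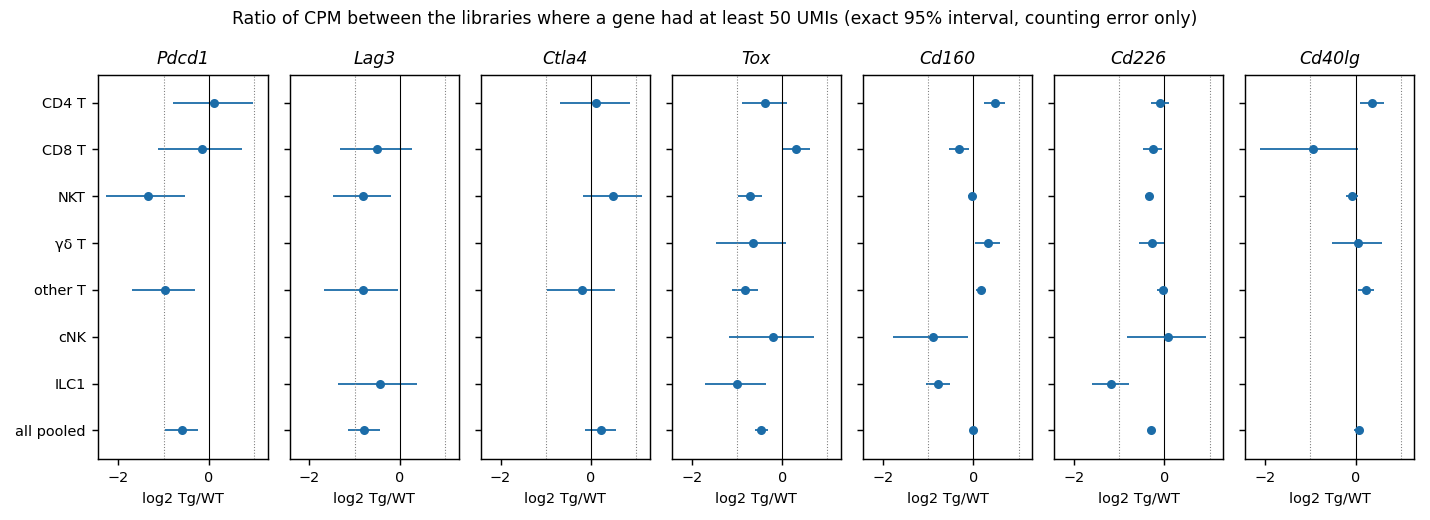
Log2 ratio of CPM, Tg over WT (horizontal axis), of 7 genes in the subsets where a gene had at least 50 UMIs over both libraries and in all lymphocytes pooled. Points are ratios, bars are exact 95% intervals for counting error, and dotted lines mark a 2-fold ratio. Pdcd1 in NKT cells (-1.35) and Cd226 and Tox in ILC1 (-1.18 and -1.005) lie past the line, and Cd160 lies on both sides of 0.

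Most lymphocytes showed 1 or none of the 9 genes at a fixed depth. After thinning to 1500 UMIs, 41.3% and 42.7% of lymphocytes held no UMI of any, 38.0% and 36.3% held 1 of them, 16.6% and 17.1% held 2, 3.90% and 3.598% held 3 and 0.290% and 0.235% held 4 or more. Of 153 and 65 ILC1-like cells 51 and 13 held 2. Cd160 and Cd226 occurred together in 28 and 10 CD8 T-like cells, where the product of their shares gives 15.5 and 4.60 cells. In NKT-like cells they met in 278 and 137 cells, against 278 and 120.1. In the pool, where subsets of unlike levels are mixed, Pdcd1 and Ctla4 met in 4 and 5 cells against 0.400 and 0.254, and Lag3 and Cd40lg in 4 and 0 against 10.5 and 3.97. These are 4 of the counts from 36 pairs per population, they are small, and they carry no test.

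Over the 14 profiles of subset and library, 9497 genes were ranked by Pearson's r of log2(CPM + 10) with each of the 9, as a description. Profiles of 1 library share its preparation and depth. Cd226 was most like Gimap3 (r = 0.98), Cxcr3 (0.97), a chemokine receptor of effector lymphocytes, and Ly6e (0.97). Cd160 was most like Serpina3g (0.97), Trip4 (0.96) and Qpct (0.96), and Cd40lg like Gm14718 (0.97), Ly6c1 (0.96) and A630023P12Rik (0.96). Ctla4 was most like Tbc1d4 (0.91), A630023P12Rik (0.90) and Izumo1r (0.90), which encodes folate receptor 4 of regulatory T cells. Pdcd1 was most like Mboat1 (0.92), Tagap1 (0.89) and Cdkn1b (0.88), and Lag3 like Dnmbp (0.92), Apol7b (0.91) and Pim2 (0.90). Tox was most like Neil1, Tmem216 and 4921531C22Rik, each at 0.85. Tigit was most like Fuca1 (0.90), Tnrc18 (0.89) and Phc1 (0.89), and Havcr2 like Fcgrt (0.80), Pus7 (0.78) and Urb1 (0.78), both over few UMIs.

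Of 20 other inhibitory and costimulatory receptors, all had at least 50 UMIs in the pool and 18 had a log2 ratio below 0, with a median of -0.35 against -0.13 over all genes. Relative to that shift of all genes 17 of the 20 lay below. At least 2-fold lower was 1 of them, against 1.5% of 11967 genes: Cd200r1, an inhibitory receptor and also a gate marker of ILC1-like cells, at 25.2 and 12.5 CPM, or -1.01 (-1.26 to -0.77). In CD8 T-like cells 2 of 16 were, against 1.73% of 8592 genes: Cd244a (14.4 and 6.25 CPM, -1.21, interval -2.08 to -0.42) and Klrg1 (11.2 and 4.29 CPM, -1.38, interval -2.45 to -0.44), receptors of effector and NK cells. In NKT-like cells 2 of 19 were, against 1.7% of 10370 genes: Crtam (3.79 and 1.45 CPM, -1.39, interval -2.78 to -0.24) and Cd200r1 (31.3 and 12.6 CPM, -1.31, interval -1.73 to -0.92). In CD4 T-like cells none of 15 was, against 1.43% of 6867 genes. None was 2-fold higher in these 4 populations, against 5.53% of genes in CD8 T-like, 3.83% in CD4 T-like and 6.94% in NKT-like cells and 8.69% in the pool. DESeq2 size factors raise pooled ratios by 0.13, which puts Cd200r1 in the pool under 2-fold. These receptors were not measured at matched depth.

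Of 18 transcription factors of T cell activation, memory and exhaustion, all had at least 50 UMIs in the pool and 16 had a ratio below 0, with a median of -0.34, and 14 lay below the median of all genes. Tox2, the paralog of Tox, was the 1 past 2-fold, where 1.5% of all genes were lower and 8.69% higher, at 1.55 and 0.656 CPM, or -1.24 (-2.46 to -0.20), on 47 and 9 UMIs. Ikzf2 (Helios), a factor of regulatory and innate-like T cells, lay on both sides of 0. It stood at 53.5 and 25.8 CPM in CD8 T-like cells (-1.06, interval -1.46 to -0.67) and 68.1 and 27.5 CPM in NKT-like cells (-1.31, interval -1.58 to -1.04), both lower in Tg. In CD4 T-like cells it was higher, at 35.9 and 72.6 CPM, or 1.02 (0.59 to 1.45). Nr4a1, induced by T cell receptor signalling, stood at 2.88 and 6.20 CPM in NKT-like cells, or 1.10 (0.36 to 1.83). These are 1 lower of 14 factors in CD8 T-like cells (1.73% of all genes), 1 higher of 11 in CD4 T-like cells (3.83%), and 1 lower (1.7%) and 1 higher (6.94%) of 15 in NKT-like cells. DESeq2 size factors raise CD8 T-like ratios by 0.11, which puts Ikzf2 there under 2-fold. The factors were not measured at matched depth.

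Most ligands lay in other cells. Cd274, the PD-1 ligand PD-L1, stood at 27.5 and 10.9 CPM in neutrophil-like cells, on 25 and 6 UMIs, and at 26.5 and 15.3 CPM in B cell-like cells, on 283 and 86 UMIs, so few neutrophil UMIs leave the order of these populations unsettled. Its relative Pdcd1lg2 was highest in the lymphocytes themselves, at 15.4 and 11.6 CPM. Of the ligands of LAG3, Clec4g, a sinusoidal lectin, was highest in endothelial-like cells (2445 and 1740 CPM) and the MHC class II genes H2-Aa (3107 and 4046 CPM) and H2-Ab1 (3139 and 4524 CPM) in myeloid-like cells. Fgl1, a hepatocyte product, was highest in the ungated cells, at 199 and 422 CPM. It also read 11.6 and 115 CPM in lymphocytes, beside their 0.582 and 4.20 percent of hepatocyte transcripts.

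Pvr (26.6 and 20.5 CPM) and Nectin2 (87.3 and 67.1 CPM), shared by CD226 and TIGIT, were highest in endothelial-like cells. Of the ligands of CTLA4, Cd86 was highest in myeloid-like (54.0 and 61.8 CPM) and Cd80 in neutrophil-like cells (19.8 and 12.7 CPM). Neutrophil-like cells totalled only 908263 and 552354 UMIs, so the place of Cd80 rests on few UMIs. Of those of TIM-3, Lgals9 was highest in ungated cells (353 and 394 CPM) and Hmgb1 in pDC-like cells (768 and 792 CPM). Ceacam1 was highest in myeloid-like cells in WT (93.8 and 56.0 CPM) and in ungated cells in Tg (38.3 and 73.8 CPM). Cd40, the receptor of CD40 ligand, stood at 43.4 and 20.9 CPM in myeloid-like cells, and at 40.9 and 37.3 CPM in B cell-like cells, which are close in WT. Tnfrsf14, the partner of CD160, stood at 1.62 and 1.46 CPM in the lymphocytes themselves. Of 19 ligand genes listed, 17 had at least 50 UMIs in the pooled lymphocytes. There 1 was at least 2-fold lower in Tg, against 1.5% of 11967 genes, and 4 at least 2-fold higher, against 8.69%. Ligands were past 2-fold in other populations too, for which no share over all genes was counted.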

How the data were processed

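Single-cell RNA-seq of 2 libraries, Hep-ADKWT and Hep-ADKTg, was analysed. The deposited values are raw UMI counts per gene and barcode. Cell Ranger 6.1.2, Seurat 4.0.2, R 4.1.0 and GRCm38/mm10 are named per the submitters' processing notes, while the file headers name Cell Ranger 5.0.1. The series text names a later ambient RNA correction, but the deposited counts are whole numbers and were treated as uncorrected. Their free RNA is therefore still present.

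Barcodes with at least 500 UMIs, 200 genes, at most 20% mitochondrial UMIs and a Scrublet score of at most 0.2 were kept, and Scrublet removed 479 (3.70%) and 404 (2.72%) cells as likely doublets. Gates used raw UMIs. T cells needed at least 2 UMIs of Cd3d, Cd3e and Cd3g and 1 of a T cell receptor constant gene, and NK-like and ILC1-like cells at least 2 UMIs of Ncr1, Klre1 and Klrb1c with at most 1 of Cd3. T cells were then divided by Trdc, by Klrb1c or Zbtb16, by Foxp3, and by Cd8a, Cd8b1 and Cd4. Lymphocytes with 3 or more UMIs of another lineage, 776 (14.6%) and 298 (10.4%) cells, were left out. Doublets with few such UMIs remain possible.

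UMIs were summed per subset and library and given as CPM with exact 95% Poisson intervals. Ratios have exact conditional binomial intervals. Each group was 1 library, so no test was made. Shares of cells were taken after thinning each cell to 1500 UMIs, with shallower cells left out. A gene counted as past 2-fold needed at least 50 UMIs over both libraries, and the share of all such genes past the same fold is printed as background. Alternatives used TMM (edgeR 4.0.16) and size factors (DESeq2 1.42.0), other filters and gates. These tools only scaled the sums. The ratio code was checked on simulated data. Python 3.11.15, scipy 1.17.1, scanpy 1.11.5 and R 4.3.3 were used.

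All 9 genes were named by rule. The 3 genes most like each were named among genes with at least 200 UMIs, leaving out gate markers. Of the receptor and factor lists those past 2-fold were named. Ligands of the 9 genes were named where highest, and those past 2-fold were only counted, in the pool. Genes and lists were chosen with earlier results of these data known. The joining of NKT-like and other T-like cells and the breakdown of left-out cells were chosen after seeing the data. Positions came from GENCODE M21, in which 32235 of 32285 identifiers were found.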

Additional observations from a re-analysis of the deposited data

Results flagged for a closer look

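Tox gave ratios on both sides of 0 under the same contrast. The log2 ratio of Tg over WT was 0.31 in CD8 T-like cells, against -0.71 in NKT-like, -0.82 in other T-like and -1.005 in ILC1-like cells, with intervals for counting error that exclude 0 in each. The difference between these subsets was not tested, since each group is 1 library. At matched depth each of these intervals held 0.

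Cd160 also lay on both sides. It was 0.47 in CD4 T-like, 0.31 in gamma-delta T-like and 0.18 in other T-like cells, and -0.32 in CD8 T-like, -0.90 in conventional NK-like and -0.78 in ILC1-like cells. This difference was not tested either. At matched depth the intervals spanned both sides except in CD8 T-like and other T-like cells.

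Havcr2 appeared in cells that the comparisons do not use, the T and NK cells left out for markers of another lineage. They carried 6.19 and 14.0 CPM in WT and Tg, above the 1.02 and 1.09 CPM of the lymphocytes compared. Those marked by myeloid genes, 87 and 55 cells, carried 33.3 and 56.4 CPM, beside 42.0 and 61.2 CPM in myeloid-like cells.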

How the results depend on the processing

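With 1 library per group no result has a replicate check. No paired analysis was possible because each group has 1 library. None of the genes with at least 50 UMIs was past 2-fold in the pooled lymphocytes, in either direction, under any of 12 alternatives. Among 53 ratios of a gene in a subset or pool, 53 stayed within their first intervals without the hepatocyte genes in the totals, with a minimum of 1 or 3 Cd3 UMIs, with at least 1000 UMIs per cell and without Scrublet. TMM and DESeq2 scaling each kept 46 within them and gave 4 another sign. The mean over cells of each cell's CPM kept 49 and gave 7 another sign. A limit of 10% mitochondrial UMIs kept 48 and gave 4 another sign. Keeping the cells marked by another lineage kept 42 and gave 8 another sign. Thinning cells to 1500 UMIs before the gates moved most: of 46 ratios 20 stayed within their intervals and 13 took another sign. That setting also moved cells between the gates and changed which cells were in the pool. Tox in ILC1-like cells was then 0.091 in place of -1.005, on 30 and 11 UMIs, beside the shallower Tg cells, and the cause was not tested. The share of all genes at least 2-fold lower in the pool was 4.71% with a minimum of 10 UMIs and 0.418% with 200. Tigit, Havcr2 and most genes in NK-like cells were limited by UMIs.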

Other observations

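Other left-out cells also differed from the lymphocytes compared. The T and NK cells with B cell markers, 446 and 185 cells with medians of 17765.5 and 7991 UMIs, held 194 and 39 Ctla4 UMIs. Their Ctla4 level was 20.3 and 20.2 CPM, against 7.09 and 8.23 CPM in the lymphocytes compared. B cell-like cells carried 4.67 and 2.13 CPM, so the left-out cells stood above both populations. Those with pDC markers, 83 and 9 cells, held Lag3 at 59.1 and 145 CPM, on 82 and 15 UMIs. The pDC-like cells stood at 149 and 191 CPM. The WT value was below theirs, and the few Tg UMIs leave the order in Tg unsettled. Whether these cells were doublets was not tested.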
